A study of Arabidopsis thaliana with 6 samples.

Results

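Poly(A) RNA of 32-cell embryos was compared with poly(A) RNA of 1-cell/2-cell embryos of Arabidopsis thaliana, gene by gene. The comparison rested on 4 of the 6 libraries of the series, chosen by the stage in their labels, with 2 libraries at each stage. Reads fell on 23212 of the 23874 genes of the series in at least 1 of these 4 libraries. The 32-cell embryos were dissected by hand about 78 h after pollination, and the 1-cell/2-cell embryos about 40 h after pollination. All embryos were hybrids between 2 accessions, Col-0 and Cvi-0, and each stage had 1 library with a Col-0 mother (Col-0 x Cvi-0) and 1 with a Cvi-0 mother (Cvi-0 x Col-0), the mother being named first by the usual convention. Each library came from 1 pool of 20 washed embryos, so a value is that of a pool and no stage and cross had a second pool. The labels count the cells of the embryo proper, and whether suspensor cells were taken off is not given in the sources used here. The 8-cell libraries of the same crosses, 64 h after pollination, entered the fit to estimate the spread and are given as values in between.

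In Arabidopsis the zygote divides into an apical cell, which founds most of the embryo proper, and a basal cell, which founds the suspensor. By the 32-cell stage an outer layer, the protoderm, encloses inner precursors of the vascular and ground tissue, and the poles of root and shoot are being set apart. Auxin, moved between cells by carriers and read out through the response factor MONOPTEROS, is a central signal of these divisions, and the protoderm begins to build the cuticle that seals the young plant.

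The libraries held 14641128 and 14805499 gene reads at the 32-cell stage and 10578677 and 10942750 gene reads at the 1-cell/2-cell stage. In this and every later pair of values the library with a Col-0 mother stands before the one with a Cvi-0 mother. Between 18831 and 20575 genes had reads in a library, and 17000 genes had reads in all 4 compared libraries. Levels are the RPM that the authors deposited, that is the reads of a gene scaled to the reads that matched the genome and transcript models. They are not divided by transcript length, so levels were compared between stages of 1 gene and not between genes. The 4 libraries did not differ by stage alone. The summed level of 18 heat shock genes was 2087 and 8151 RPM in 32-cell embryos, against 12042 and 15409 RPM in 1-cell/2-cell embryos. The summed level of 44 photosynthesis genes was 1383 and 460.0 RPM in 32-cell embryos, against 394 and 405 RPM in 1-cell/2-cell embryos. Seed coat and pollen markers also differed between single libraries, and these values stand beside the results they bear on.

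At the 32-cell stage 730 genes were higher than at the 1-cell/2-cell stage and 630 were lower, out of 17478 genes tested. This is a background of 4.18% of tested genes higher and 3.6% lower, beside which every list count below is to be read. Gene reads were tested with edgeR (quasi-likelihood) with stage and cross as terms and Benjamini-Hochberg adjustment over all genes tested (threshold 0.05), and every adjusted p below comes from it. Since a stage and cross had 1 library, the reciprocal crosses served as repeats of a stage, and p-values measure only the spread left in this fit. The higher genes had a median log2 change of 3.14 and the lower genes a median change of 2.42 in size. A fitted change of at least 16-fold was found for 290 higher and 138 lower genes. For 56 of the higher genes the 1-cell/2-cell libraries held 0 reads, and for 7 of the lower genes the 32-cell libraries held 0 reads. All 1360 genes changed in the same direction in both crosses, and for 1358 of them the levels of the stages did not overlap. AT2G07667 and AT3G07850 were the exceptions, named after their values were seen. With 2 libraries a stage, genes pass largely where the crosses agree and the stages lie apart, so these counts are no added support. The mean level at the 8-cell stage lay between the means of the 32-cell and 1-cell/2-cell stages for 676 of the higher and 586 of the lower genes. Neither the share without overlap nor the share with an 8-cell mean in between was counted over all tested genes.

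The counts depended on single libraries. Without the 32-cell library with a Col-0 mother 452 genes were higher and 335 lower, and without the 1-cell/2-cell library with a Cvi-0 mother 1194 were higher and 994 lower. The share of called genes that were higher was 53.7% with TMM scaling and 42.2% with library totals alone, a scaling that moved the median log2 change of all genes to -0.23. Over the 17478 genes the log2 changes measured separately in each cross had a Pearson correlation of 0.639 and a Spearman correlation of 0.583, as a description across genes, which are not independent replicates. Of these genes, 6363 were above 0 in both crosses and 6177 below 0 in both. An unadjusted p under 0.05 in edgeR was found for 4634 of the 17478 genes. DESeq2, an alternative test, called 1646 of them higher and 1360 lower.

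**Figure D1:**
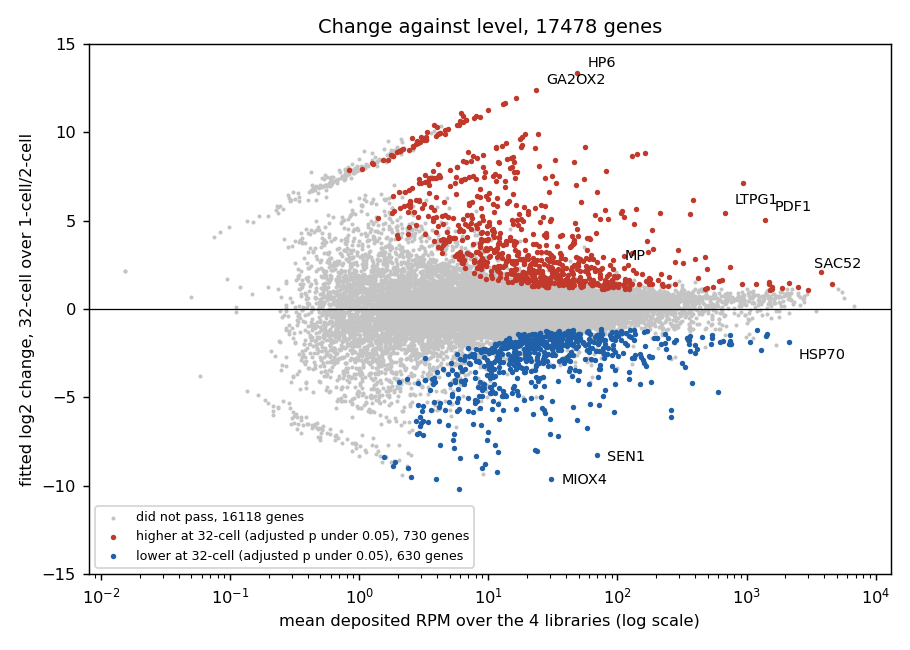
Fitted log2 change (32-cell over 1-cell/2-cell, vertical axis) against the mean deposited RPM over the 4 libraries (horizontal axis, log scale) for each of 17478 genes. Red points are the 730 genes higher at the 32-cell stage, blue points the 630 lower genes and grey points those that did not pass; the sloping edges at the left are genes with 0 reads at 1 stage, whose fitted change is no bound.

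The gene with the smallest adjusted p of all was AT1G71691, which encodes a GDSL-type lipase and was singled out after its values were seen. It had 2149.6 and 1573 RPM in 32-cell embryos, against 16.1 and 13.3 RPM in 1-cell/2-cell embryos (log2 change 7.12 ± 0.34 (SE), adjusted p = 0.000885). The libraries of a stage thus lay close together and the stages far apart. Its 8-cell libraries had 376 and 375 RPM.

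The largest fitted increases belonged to genes with 0 reads in both 1-cell/2-cell libraries. For these the fold is a lower bound, computed as if both early libraries together held 3 reads, and bounds and count intervals here cover counting error only. HP6 (AT1G80100, chr1:30133718-30134937 (+ strand), TAIR10.1), a pseudo-phosphotransfer protein that inhibits cytokinin signalling, had 154 and 38.6 RPM in 32-cell embryos and was at least 894-fold higher (adjusted p = 0.00285). GA2OX2 (AT1G30040, chr1:10537457-10540044 (+ strand)), a gibberellin-inactivating oxidase, had 64.0 and 28.9 RPM in 32-cell embryos and was at least 432-fold higher (adjusted p = 0.00406). DRNL (AT1G24590), an AP2-type factor of cotyledon development, had 36.8 and 15.4 RPM (at least 243-fold, adjusted p = 0.00266). At the 8-cell stage HP6 had 0.165 and 0.405 RPM and DRNL 0.248 and 0.135 RPM, still near 0, and GA2OX2 had 2.31 and 5.67 RPM. SOB3 (AT1G76500), an AT-hook protein that restrains hypocotyl growth, reached 43.8 and 22.0 RPM at the 32-cell stage (at least 307-fold), and NPY4 (AT2G23050), of an NPH3-type family linked to auxin-dependent organ formation, 22.6 and 17.0 RPM (at least 185-fold). The other genes of the 10 were the remorin gene AT1G53860 (at least 250.1-fold), the Dof factor gene TMO6, the lipid-transfer-type gene AT2G14846 (at least 161-fold), the RING-type gene AT4G03965 (at least 118-fold) and AT2G01913, which has no described product (at least 114-fold).

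The 6 higher genes with the highest mean RPM, a ranking not corrected for transcript length, had smaller fitted increases. This did not hold for all abundant genes, since PDF1 rose by a log2 change of 5.06. The glycine-rich protein gene AT3G24250 had 4239 and 7858 RPM in 32-cell embryos, against 1022 and 2089 RPM in 1-cell/2-cell embryos (log2 change 2.09 ± 0.38, adjusted p = 0.0196), and it lost the call without the 32-cell library with a Cvi-0 mother. LTP3 (AT5G59320), a lipid transfer protein of the cell wall, had 3765 and 2302 RPM in 32-cell embryos, against 1088 and 1311 RPM in 1-cell/2-cell embryos (log2 change 1.45 ± 0.34, adjusted p = 0.0454). The other 4 of the 6 most abundant higher genes encode ribosomal proteins. SAC52 (AT1G14320) of the L10e family had 7974 and 5105 RPM in 32-cell embryos, against 2631 and 2669 RPM in 1-cell/2-cell embryos (log2 change 1.41 ± 0.31, adjusted p = 0.0342), and RPS6, AT5G02960 and AT4G18100 had log2 changes of 1.1, 1.25 and 1.18. The calls of the 4 ribosomal genes were lost without either 32-cell library and without either 8-cell library. That of LTP3 was lost without the 32-cell library with a Col-0 mother, the 1-cell/2-cell library with a Col-0 mother or either 8-cell library.

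**Figure D2:**
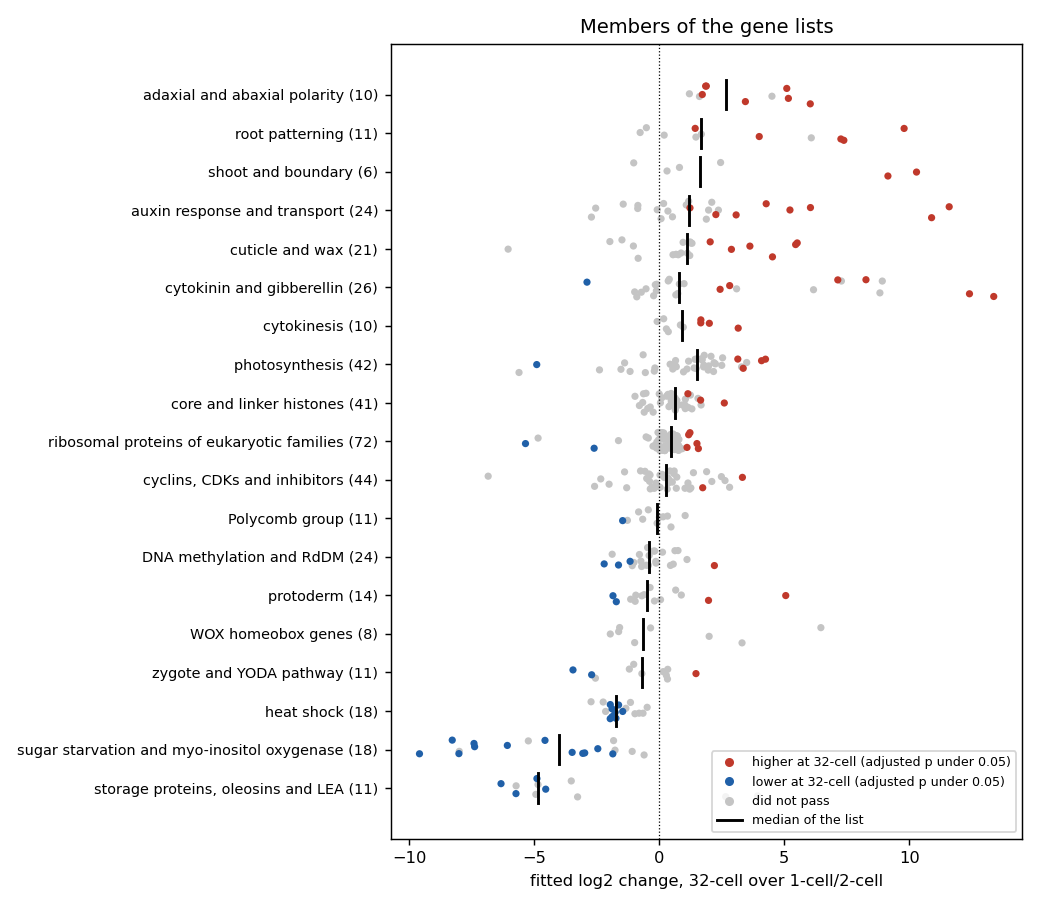
Fitted log2 change (32-cell over 1-cell/2-cell) of every tested member of 19 gene lists, 1 point per gene, with the number of tested members in parentheses. Red points were higher and blue points lower at the 32-cell stage, grey points did not pass, and the black bar is the median of the list; all 10 polarity genes lie above 0 and all 18 sugar starvation and all 18 heat shock genes below 0.

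Genes of auxin synthesis, transport and response were higher at the 32-cell stage in 8 of 24 tested members and lower in 0, beside the background of 4.18% and 3.6%, and their median log2 change was 1.202, against 0.00 over all genes. MP (AT1G19850), the auxin response factor MONOPTEROS, had 148 and 155 RPM in 32-cell embryos, against 34.7 and 34.8 RPM in 1-cell/2-cell embryos (log2 change 2.26 ± 0.29, adjusted p = 0.00685). LAX2 (AT2G21050), an auxin influx carrier of vascular tissue, had 138 and 66.5 RPM in 32-cell embryos, against 3.22 and 0.544 RPM in 1-cell/2-cell embryos (log2 change 6.05 ± 0.57, adjusted p = 0.00254). The MONOPTEROS target TMO6 (AT5G60200) had 15.8 and 16.5 RPM in 32-cell embryos and 0 reads in 1-cell/2-cell embryos, at least 151-fold higher (adjusted p = 0.00322). In each of these genes both 32-cell libraries stood above both 1-cell/2-cell libraries, which for called genes is no added support. TMO5 (AT3G25710), a bHLH factor that drives divisions of vascular precursors, had 4.92 and 10.3 RPM in 32-cell embryos, against 0.236 and 0.155 RPM in 1-cell/2-cell embryos (log2 change 5.23 ± 0.99, adjusted p = 0.0231), and its partner LHW (AT2G27230) had 38.8 and 39.8 RPM in 32-cell embryos, against 17.38 and 19.8 RPM in 1-cell/2-cell embryos (log2 change 1.23 ± 0.30, adjusted p = 0.0498). The aminotransferase genes TAA1 and TAR2, whose products take tryptophan to the precursor of auxin, rose as well. TAA1 (AT1G70560) had 38.2 and 34.1 RPM in 32-cell embryos, against 2.75 and 6.68 RPM in 1-cell/2-cell embryos (log2 change 3.07 ± 0.53, adjusted p = 0.0172), and TAR2 (AT4G24670) had 18.19 and 14.7 RPM in 32-cell embryos, against 0.472 and 1.86 RPM in 1-cell/2-cell embryos (log2 change 4.28 ± 0.79, adjusted p = 0.0214). BDL, the inhibitor of MONOPTEROS, did not pass (log2 change 0.53), nor did AUX1 (0.35), PID (-0.08) or PIN3 (-2.55, adjusted p = 0.0591). The tested YUCCA genes of auxin synthesis went both ways without passing: YUC1 and YUC3 (log2 changes 2.37 and 1.97), YUC4 and YUC8 (-0.86 and -2.72). DRN, in contrast to DRNL, was below 0 and did not pass (log2 change -1.44, adjusted p = 0.117). The call of LHW was lost without each of the 6 libraries in turn, and that of TAR2 without the 32-cell library with a Col-0 mother.

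Of 11 root patterning genes, 5 were higher and 0 lower, with a median log2 change of 1.68. SHR (AT4G37650), a mobile factor made in vascular precursors that specifies the ground tissue, had 12.4 and 13.6 RPM in 32-cell embryos, against 0 and 0.155 RPM in 1-cell/2-cell embryos. Since the 1-cell/2-cell value rests on 1 to 3 reads, the change is given as a ratio of library-scaled reads with its 95% counting interval, 182, interval 50.1 to 1509.5 (adjusted p = 0.00628). JKD (AT5G03150), a zinc finger protein that limits SHR movement, had 26.6 and 18.9 RPM in 32-cell embryos, against 0.354 and 0 RPM in 1-cell/2-cell embryos (log2 change 7.27 ± 1.25, adjusted p = 0.0172). The PLETHORA gene PLT3 (AT5G10510) had 10.4 and 10.2 RPM in 32-cell embryos, against 0.590 and 0.738 RPM in 1-cell/2-cell embryos (log2 change 4.0 ± 0.62, adjusted p = 0.0121), and PLT1 (AT3G20840), with 43.3 and 69.9 RPM in 32-cell embryos, against 16.6 and 29.9 RPM in 1-cell/2-cell embryos, changed less (log2 change 1.44 ± 0.30, adjusted p = 0.0295). ANT (AT4G37750), a related AP2-type growth factor gene, had 11.9 and 3.72 RPM in 32-cell embryos and 0 reads in 1-cell/2-cell embryos (at least 72.7-fold, adjusted p = 0.0373). The genes of this list that rose were below 1 RPM early, with the exception of PLT1. PLT2, with 39.7 and 53.2 RPM in 32-cell embryos, against 86.1 and 86.2 RPM in 1-cell/2-cell embryos, and SCR, with 36.1 and 37.8 RPM in 32-cell embryos, against 25.2 and 49.6 RPM in 1-cell/2-cell embryos, did not pass (log2 changes -0.77 and 0.20). The list count was 3 without the 32-cell library with a Col-0 mother, where PLT1 and ANT lost their calls; PLT1 lost its call also without the 1-cell/2-cell library with a Col-0 mother.

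Among 6 tested shoot and boundary genes, 2 were higher and 0 lower, beside 4.18% and 3.6% of all tested genes. CUC1 (AT3G15170) and CUC2 (AT5G53950), NAC factors that separate the cotyledons, were near 0 early. CUC1 had 54.9 and 16.2 RPM in 32-cell embryos, against 0 and 0.155 RPM in 1-cell/2-cell embryos (ratio 495, interval 137 to 4089.9, adjusted p = 0.0308). CUC2 had 9.10 and 6.88 RPM in 32-cell embryos and 0 reads in 1-cell/2-cell embryos (at least 74.5-fold, adjusted p = 0.0376). CUC3, with 25.8 and 11.0 RPM in 32-cell embryos, against 4.72 and 2.87 RPM in 1-cell/2-cell embryos, did not pass (log2 change 2.45 ± 0.97, adjusted p = 0.159). STM, the homeobox gene of the shoot meristem, had 1.41 and 0 RPM in 32-cell embryos and 0 reads in 1-cell/2-cell embryos, and too few reads to be tested. CUC2 lost its call without the 32-cell library with a Col-0 mother, and 3 genes passed without the 32-cell library with a Cvi-0 mother or either 8-cell library.

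The leaf polarity genes had the highest share of calls of the patterning lists, with 7 of 10 tested members higher, 0 lower and a median log2 change of 2.66. HD-ZIP III factors, which mark the adaxial and vascular side, made up 5 of the 7. PHB (AT2G34710) had 113 and 142 RPM in 32-cell embryos, against 32.3 and 44.6 RPM in 1-cell/2-cell embryos (log2 change 1.88 ± 0.28, adjusted p = 0.0111). PHV (AT1G30490) had 21.5 and 13.2 RPM in 32-cell embryos, against 1.14 and 2.64 RPM in 1-cell/2-cell embryos (log2 change 3.45 ± 0.67, adjusted p = 0.0247). ATHB-15 (AT1G52150) had 38.1 and 43.1 RPM in 32-cell embryos, against 14.9 and 9.71 RPM in 1-cell/2-cell embryos (log2 change 1.85 ± 0.39, adjusted p = 0.0309), and REV (AT5G60690) had 19.4 and 28.3 RPM in 32-cell embryos, against 10.2 and 6.21 RPM in 1-cell/2-cell embryos (log2 change 1.72 ± 0.38, adjusted p = 0.0373). HB-8 (AT4G32880), a marker of vascular precursors, had 2.83 and 2.55 RPM in 32-cell embryos, against 0 and 0.194 RPM in 1-cell/2-cell embryos (ratio 37.5, interval 10.1 to 314, adjusted p = 0.0406). In each of the 5 HD-ZIP III genes both 32-cell libraries were above both 1-cell/2-cell libraries, which for called genes is no added support. On the abaxial side KAN2 (AT1G32240) had 13.3 and 11.5 RPM in 32-cell embryos, against 0.549 and 0.233 RPM in 1-cell/2-cell embryos (log2 change 5.10 ± 1.19, adjusted p = 0.0432), and YAB5 (AT2G26580), a YABBY factor, had 23.3 and 6.34 RPM in 32-cell embryos, against 0.393 and 0.0774 RPM in 1-cell/2-cell embryos (log2 change 6.04 ± 0.97, adjusted p = 0.0139). KAN1, FIL and ATS were above 0 without passing (log2 changes 4.51, 1.205 and 1.61). The list count was 2 without the 32-cell library with a Col-0 mother, with PHB and REV still called, and 4 without the 1-cell/2-cell library with a Cvi-0 mother or with library totals as the scaling.

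Of the 8 tested WOX homeobox genes 0 passed in edgeR, and their median log2 change was -0.67. An unadjusted p under 0.05 was found for 3 of the 8, beside 4634 of all 17478 tested genes. WOX2 (AT5G59340), expressed in the zygote and then in the apical lineage, had 19.0 and 37.7 RPM in 32-cell embryos, against 105 and 87.9 RPM in 1-cell/2-cell embryos (log2 change -1.63 ± 0.43, adjusted p = 0.0634). WOX8 (AT5G45980), expressed in the basal lineage, had 10.4 and 28.6 RPM in 32-cell embryos, against 49.2 and 72.3 RPM in 1-cell/2-cell embryos (log2 change -1.59 ± 0.47, adjusted p = 0.082), and WOX9 (AT2G33880) had 29.2 and 48.8 RPM in 32-cell embryos, against 61.4 and 109 RPM in 1-cell/2-cell embryos (log2 change -0.99 ± 0.31, adjusted p = 0.095). In all 3 both 32-cell libraries were below both 1-cell/2-cell libraries. These 3 were named for the smallest p of the list, which largely calls for such a gap, so it is no added support. WOX5 (AT3G11260), a marker of the future quiescent centre, had 16.3 and 16.7 RPM in 32-cell embryos, against 5.70 and 0 RPM in 1-cell/2-cell embryos, so that its early libraries differed, and it did not pass (log2 change 3.31 ± 1.43, adjusted p = 0.189). DESeq2 and limma each called 3 WOX genes lower, and leaving out 1 library gave 0 to 2 lower and 0 to 1 higher.

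Of 11 genes of the egg-to-zygote transition and the YODA kinase pathway, which sets zygote elongation and suspensor fate, 1 was higher and 2 were lower. RKD2 and RKD3, of a family of RWP-RK factors known from the egg cell, were the lower ones. RKD3 (AT5G66990) had 1.63 and 2.04 RPM in 32-cell embryos, against 16.7 and 10.6 RPM in 1-cell/2-cell embryos (log2 change -2.71 ± 0.60, adjusted p = 0.0372), and RKD2 (AT1G74480) had 0.553 and 0.961 RPM in 32-cell embryos, against 12.6 and 6.91 RPM in 1-cell/2-cell embryos (log2 change -3.45 ± 0.83, adjusted p = 0.0467). The kinase gene MPK3 (AT3G45640) had 60.2 and 52.2 RPM in 32-cell embryos, against 26.5 and 18.7 RPM in 1-cell/2-cell embryos (log2 change 1.47 ± 0.35, adjusted p = 0.0443). YDA itself, with 9.65 and 12.1 RPM in 32-cell embryos, against 25.1 and 23.03 RPM in 1-cell/2-cell embryos, did not pass (log2 change -1.02 ± 0.37, adjusted p = 0.13), nor did WRKY2, which acts upstream of WOX8 (log2 change -2.56 ± 0.71, adjusted p = 0.0713). Over 14 alternative settings RKD2 lost its call in 4, RKD3 in 3 and MPK3 in 4. Neither RKD gene passed without the 32-cell library with a Col-0 mother or without either 1-cell/2-cell library, and MPK3 did not pass without the 32-cell library with a Col-0 mother or the 1-cell/2-cell library with a Cvi-0 mother.

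**Figure D3:**
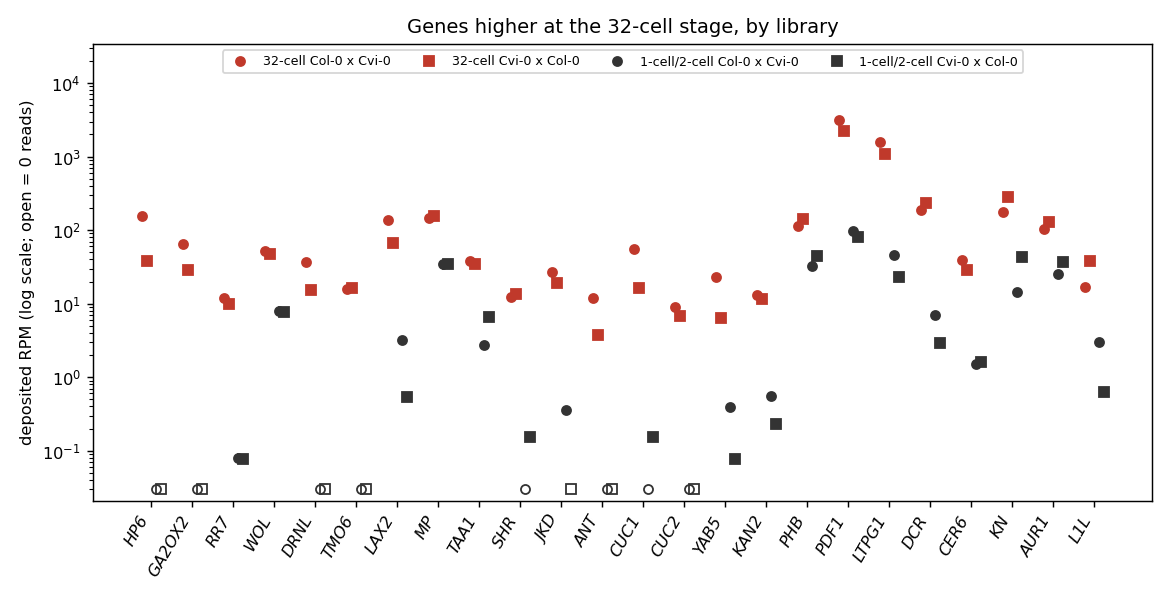
Deposited RPM (log scale) of 24 list genes that were higher at the 32-cell stage, in each of the 4 libraries. Red symbols are 32-cell and black symbols 1-cell/2-cell libraries, circles are Col-0 x Cvi-0 and squares Cvi-0 x Col-0, and open symbols at the bottom stand for 0 reads; in every gene shown both red symbols lie above both black ones.

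Protoderm genes split, with 2 of 14 tested members higher and 2 lower, beside 4.18% and 3.6% of all tested genes. PDF1 (AT2G42840, chr2:17826071-17827648 (- strand)), a protein of the protoderm cell wall, had 3179 and 2227 RPM in 32-cell embryos, against 97.4 and 79.8 RPM in 1-cell/2-cell embryos (log2 change 5.06 ± 0.32, adjusted p = 0.00133), and 1205 and 1208 RPM at the 8-cell stage. PDF2 (AT4G04890), an HD-ZIP IV factor that maintains epidermal identity, had 245 and 434 RPM in 32-cell embryos, against 74.7 and 112 RPM in 1-cell/2-cell embryos (log2 change 1.97 ± 0.32, adjusted p = 0.0134). Its close relative ATML1 (AT4G21750) had 140.0 and 198 RPM in 32-cell embryos, against 324 and 394 RPM in 1-cell/2-cell embryos and did not pass (log2 change -0.97 ± 0.32, adjusted p = 0.109). The HD-ZIP IV genes HDG12 (AT1G17920) and ANL2 (AT4G00730) were lower. HDG12 had 29.0 and 50.5 RPM in 32-cell embryos, against 116 and 167 RPM in 1-cell/2-cell embryos (log2 change -1.72 ± 0.35, adjusted p = 0.0282) and ANL2 6.36 and 9.46 RPM in 32-cell embryos, against 26.0 and 37.2 RPM in 1-cell/2-cell embryos (log2 change -1.85 ± 0.36, adjusted p = 0.0241). PDF1 and PDF2 kept their calls without any 1 library. HDG12 lost its call without the 1-cell/2-cell library with a Cvi-0 mother or the 32-cell library with a Col-0 mother, and ANL2 without each of the 4 compared libraries.

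Cuticle and wax genes were higher in 6 of 21 tested members and lower in 0, with a median log2 change of 1.12. The lipid transfer protein gene LTPG1 (AT1G27950), whose product carries wax lipids to the surface, had 1583 and 1095 RPM in 32-cell embryos, against 46.1 and 23.3 RPM in 1-cell/2-cell embryos (log2 change 5.46 ± 0.35, adjusted p = 0.00133). DCR (AT5G23940), an acyltransferase of cutin synthesis, had 191 and 231 RPM in 32-cell embryos, against 7.04 and 2.91 RPM in 1-cell/2-cell embryos (log2 change 5.52 ± 0.59, adjusted p = 0.00348). CER6 (AT1G68530), the condensing enzyme of very long chain wax synthesis, had 39.6 and 28.4 RPM in 32-cell embryos, against 1.53 and 1.63 RPM in 1-cell/2-cell embryos (log2 change 4.53 ± 0.46, adjusted p = 0.00322). Each of the 3 was low in both 1-cell/2-cell libraries, and in LTPG1 and DCR the 8-cell values, 294 and 308 and 30.0 and 76.8 RPM, lay between the stages. CYP86A2 (AT4G00360), a fatty acid hydroxylase of cutin synthesis, had 48.4 and 53.1 RPM in 32-cell embryos, against 6.37 and 2.99 RPM in 1-cell/2-cell embryos (log2 change 3.63 ± 0.43, adjusted p = 0.00487). LACS2 (AT1G49430), an acyl-CoA synthetase of the same pathway, had 71.6 and 99.9 RPM in 32-cell embryos, against 12.4 and 12.8 RPM in 1-cell/2-cell embryos (log2 change 2.89 ± 0.30, adjusted p = 0.00322), and the ketoacyl reductase gene KCR1 (AT1G67730) had 275 and 168 RPM in 32-cell embryos, against 56.4 and 58.6 RPM in 1-cell/2-cell embryos (log2 change 2.04 ± 0.33, adjusted p = 0.0147). All 6 calls held without any 1 library. FDH, CER3 and BDG1 were above 0 without passing (log2 changes 1.31, 1.26 and 0.87), and DESeq2 called 10 members higher.

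The L1 box, a binding motif of the HD-ZIP IV factors, has the forms TAAATGCA and TAAATGTA, which were searched on both strands of the 250 bases before each annotated start (TAIR10.1, RefSeq). This split into forms was chosen after the looser pattern TAAATGNA had been counted. TAAATGCA was in 2 of 21 windows of cuticle genes, 1 of 14 of protoderm genes and 1.49% of the 17400 windows of tested genes. TAAATGTA was in 1 of 21, 1 of 14 and 2.96%. The looser pattern, which also takes in letters that are neither form, was in 6 of 21 (28.6%), 3 of 14 (21.4%) and 9.74%. Of genes that rose 1.80% held TAAATGCA and 4.42% TAAATGTA, and of genes that fell 1.75% and 3.18%. A match says only that the letters are there.

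Genes of cytokinesis were higher in 4 of 10 tested members and lower in 0, with a median log2 change of 0.90. KN (AT1G08560, annotated as SYP111), the syntaxin KNOLLE that fuses vesicles into the new cell plate, had 179 and 279.8 RPM in 32-cell embryos, against 14.47 and 43.0 RPM in 1-cell/2-cell embryos (log2 change 3.16 ± 0.60, adjusted p = 0.0237). Its SNARE partner SNAP33 (AT5G61210) had 52.7 and 63.5 RPM in 32-cell embryos, against 17.7 and 23.04 RPM in 1-cell/2-cell embryos (log2 change 1.66 ± 0.30, adjusted p = 0.0193). The Aurora kinase genes AUR1 and AUR2, which act on the spindle and the cell plate, rose as well. AUR1 (AT4G32830) had 102 and 127 RPM in 32-cell embryos, against 25.3 and 36.7 RPM in 1-cell/2-cell embryos (log2 change 2.00 ± 0.43, adjusted p = 0.033), and AUR2 (AT2G25880) had 42.4 and 41.3 RPM in 32-cell embryos, against 15.4 and 13.6 RPM in 1-cell/2-cell embryos (log2 change 1.66 ± 0.31, adjusted p = 0.0211). In KN and AUR1 the 8-cell libraries, with 173 and 92.8 and 102 and 55.0 RPM, reached up to the 32-cell levels in the Col-0 x Cvi-0 cross. AUR3, with 14.0 and 15.9 RPM in 32-cell embryos, against 12.5 and 14.8 RPM in 1-cell/2-cell embryos, and the kinesin gene HIK did not pass (log2 changes 0.28 and 0.96). The list count was 2 without the 1-cell/2-cell library with a Col-0 mother, where AUR1 and AUR2 lost their calls, and 2 without the 32-cell library with a Col-0 mother, where SNAP33 and AUR2 did. AUR2 lost its call also without the 32-cell library with a Cvi-0 mother.

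The core AACGG of the mitosis-specific activator element, a motif of genes expressed before cell division, was found on either strand in the 250-base windows of 7 of 10 cytokinesis genes (70%), and in 22.8% of all tested genes. The windows of the 4 genes that rose are shown because each holds 1 match, in capitals. The match begins 12 bases before the start of KN, 79 before that of AUR1, 6 before that of AUR2 and 40 before that of SNAP33. In the strand of the gene the letters read AACGG or their complement CCGTT. The windows are chr1:2711001-2711250 (- strand) for KN, chr4:15842193-15842442 (+ strand) for AUR1, chr2:11038192-11038441 (- strand) for AUR2 and chr5:24622998-24623247 (+ strand) for SNAP33 (TAIR10.1):
KN: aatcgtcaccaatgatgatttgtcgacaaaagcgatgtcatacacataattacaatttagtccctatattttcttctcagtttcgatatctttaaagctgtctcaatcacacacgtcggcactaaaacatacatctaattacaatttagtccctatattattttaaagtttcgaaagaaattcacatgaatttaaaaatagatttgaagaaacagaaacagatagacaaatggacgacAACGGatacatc
AUR1: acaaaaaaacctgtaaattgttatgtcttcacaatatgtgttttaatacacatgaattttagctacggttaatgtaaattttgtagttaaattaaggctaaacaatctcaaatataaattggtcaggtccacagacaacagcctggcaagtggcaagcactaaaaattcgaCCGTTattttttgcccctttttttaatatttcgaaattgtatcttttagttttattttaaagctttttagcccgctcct
AUR2: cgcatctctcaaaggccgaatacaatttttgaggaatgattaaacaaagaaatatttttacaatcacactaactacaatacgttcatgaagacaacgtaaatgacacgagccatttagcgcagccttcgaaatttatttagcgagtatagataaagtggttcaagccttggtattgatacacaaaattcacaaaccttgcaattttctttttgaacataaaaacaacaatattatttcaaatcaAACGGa
SNAP33: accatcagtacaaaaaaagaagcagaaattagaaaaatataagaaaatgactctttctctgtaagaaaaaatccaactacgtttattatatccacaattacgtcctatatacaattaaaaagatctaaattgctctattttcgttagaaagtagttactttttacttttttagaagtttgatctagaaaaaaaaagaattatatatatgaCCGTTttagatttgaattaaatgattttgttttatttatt
Among all genes that rose the share with the motif was 20.4%, below that of all tested genes, and among genes that fell it was 22.8%.

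Of 44 tested cyclin, CDK and inhibitor genes, 2 were higher and 0 lower. The share higher was 4.55%, close to the 4.18% of all tested genes, and the median log2 change was 0.26. CYCD3;1 (AT4G34160), a D-type cyclin that promotes entry into the cycle, had 27.0 and 30.2 RPM in 32-cell embryos, against 1.97 and 5.17 RPM in 1-cell/2-cell embryos (log2 change 3.33 ± 0.51, adjusted p = 0.0116). CYCA2;3 (AT1G15570) had 25.8 and 34.0 RPM in 32-cell embryos, against 7.71 and 12.04 RPM in 1-cell/2-cell embryos (log2 change 1.74 ± 0.34, adjusted p = 0.0261), and lost its call without the 1-cell/2-cell library with a Col-0 mother. With 1 library left out the list count was between 1 and 7, and it was 8 with DESeq2. Core and linker histone genes had 3 of 41 tested members higher (7.32%) and 0 lower, with a median log2 change of 0.63. AT3G53730, an H4 gene, had 1303 and 598 RPM in 32-cell embryos, against 443 and 219 RPM in 1-cell/2-cell embryos (log2 change 1.65 ± 0.28, adjusted p = 0.0165). HIS4, another H4 gene, and HTA12, an H2A gene, passed as well (log2 changes 1.14 and 2.60). Reads that match several near-identical histone genes were not kept by the authors, so single histone genes are uncertain. None of the 3 calls held without the 32-cell library with a Col-0 mother, and 5 histone genes passed without the 1-cell/2-cell library with a Cvi-0 mother.

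Cytokinin and gibberellin genes were higher in 6 of 26 tested members and lower in 1, with a median log2 change of 0.77. Beside HP6 and GA2OX2, the cytokinin receptor gene WOL (AT2G01830), needed for vascular divisions, had 51.8 and 46.9 RPM in 32-cell embryos, against 7.91 and 7.65 RPM in 1-cell/2-cell embryos (log2 change 2.82 ± 0.33, adjusted p = 0.00472). The type-A response regulator gene RR7 (AT1G19050), a repressor of cytokinin signalling, had 11.9 and 9.96 RPM in 32-cell embryos, against 0.0789 and 0.0780 RPM in 1-cell/2-cell embryos (ratio 153, interval 42.0 to 1267, adjusted p = 0.00639). Its relative RR15 (AT1G74890) went the other way, with 1.41 and 1.38 RPM in 32-cell embryos, against 13.0 and 10.2 RPM in 1-cell/2-cell embryos (log2 change -2.89 ± 0.64, adjusted p = 0.0372). The receptor gene HK2 had 2.80 and 2.22 RPM in 32-cell embryos and 0 reads in 1-cell/2-cell embryos (at least 23.4-fold). KAO2 (AT2G32440), an oxidase of gibberellin synthesis, had 16.6 and 11.5 RPM in 32-cell embryos, against 3.38 and 2.37 RPM in 1-cell/2-cell embryos (log2 change 2.43 ± 0.48, adjusted p = 0.027). HP6, GA2OX2, WOL and RR7 kept their calls without any 1 library, whereas KAO2, HK2 and RR15 lost theirs without the 32-cell or the 1-cell/2-cell library with a Col-0 mother. RR15 lost its call also without either compared library with a Cvi-0 mother, KAO2 also without the 32-cell library with a Cvi-0 mother, and HK2 also without the 8-cell library with a Col-0 mother. The count of higher members was 4 without either of the 2 compared libraries with a Col-0 mother.

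Ribosomal proteins of eukaryotic families, a list drawn from annotated products after values were seen, were higher in 5 of 72 tested members and lower in 2. These are shares of 6.94% and 2.78%, beside 4.18% and 3.6% of all tested genes. The list takes only products named by a eukaryotic family (such as L28e) or as 60S acidic proteins, so SAC52, RPS6 and AT5G02960, which also rose, are outside it, and its count is not that of all ribosomal protein genes. The median log2 change of the list was 0.46, and 59 of the 72 were above 0, beside 8747 of all 17478 tested genes. The lower members were a pair of 60S acidic (stalk) proteins. AT5G40040 had 1.66 and 3.72 RPM in 32-cell embryos, against 95.9 and 143 RPM in 1-cell/2-cell embryos (log2 change -5.36 ± 0.76, adjusted p = 0.00944), and AT3G28500 had 28.7 and 42.2 RPM in 32-cell embryos, against 232 and 239.8 RPM in 1-cell/2-cell embryos (log2 change -2.61 ± 0.34, adjusted p = 0.00645). Both fell in every setting tried, including each of the 6 left-out libraries. The higher members were AT1G48830, AT2G19730, AT3G05560, AT3G14600 and AT4G18100, with log2 changes of 1.56, 1.51, 1.11, 1.23 and 1.18. The count of higher members was 27 without the 1-cell/2-cell library with a Cvi-0 mother, 2 without the 32-cell library with a Cvi-0 mother or either 8-cell library and 0 without the 32-cell library with a Col-0 mother. Reads of close paralogs may be split unequally here, since matches had to be unique.

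Nuclear photosynthesis genes were higher in 4 of 42 tested members (9.52%) and lower in 1 (2.38%), beside 4.18% and 3.6% of all tested genes. The median log2 change of the list was 1.496. PSBY (AT1G67740), a small protein of photosystem II, had 40.1 and 15.3 RPM in 32-cell embryos, against 2.67 and 0.932 RPM in 1-cell/2-cell embryos (log2 change 4.09 ± 0.61, adjusted p = 0.0108). PETC (AT4G03280), the Rieske protein, had 50.4 and 18.6 RPM in 32-cell embryos, against 3.26 and 4.31 RPM in 1-cell/2-cell embryos (log2 change 3.36 ± 0.72, adjusted p = 0.0333). PSBQA and ATPC1 were also higher (log2 changes 3.14 and 4.25). RBCS2B (AT5G38420), a small subunit of Rubisco and a member of a multigene family, had 0.0615 and 0.511 RPM in 32-cell embryos, against 1.45 and 18.8 RPM in 1-cell/2-cell embryos (log2 change -4.91 ± 0.72, adjusted p = 0.0104). At the 32-cell stage 38 of the 42 genes were higher in the Col-0 x Cvi-0 than in the Cvi-0 x Col-0 library. Over all 17478 tested genes 8541 were. The median log2 change of the list was 2.43 in the Col-0 x Cvi-0 cross and 0.20 in the Cvi-0 x Col-0 cross. Without the 32-cell library with a Cvi-0 mother 21 members were higher, and without the 32-cell library with a Col-0 mother 1 was. The count was 2 without the 1-cell/2-cell library with a Col-0 mother and 8 without the one with a Cvi-0 mother. Leaving out either 8-cell library gave 7 or 8.

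Genes of sugar starvation and myo-inositol oxygenases were lower in 12 of 18 tested members and higher in 0, with a median log2 change of -4.03. MIOX4 (AT4G26260, chr4:13297695-13300444 (+ strand)), which opens the myo-inositol ring to glucuronate, had 0.123 and 0 RPM in 32-cell embryos, against 91.0 and 30.8 RPM in 1-cell/2-cell embryos. The ratio of scaled 1-cell/2-cell to 32-cell reads was 913, interval 252 to 7542 (adjusted p = 0.00138). MIOX2 (AT2G19800) had 0.0615 and 0.150 RPM in 32-cell embryos, against 25.3 and 13.3 RPM in 1-cell/2-cell embryos (log2 change -7.39 ± 0.80, adjusted p = 0.00374). DIN1 (AT4G35770, annotated as SEN1), a dark-inducible and senescence gene, had 1.11 and 0 RPM in 32-cell embryos, against 216 and 58.3 RPM in 1-cell/2-cell embryos (log2 change -8.29 ± 0.81, adjusted p = 0.00285). In these 3 genes the early level was higher with a Col-0 mother, and the late level was near 0 in both crosses. AT3G15450, written SEN5 in the plot, encodes a protein of the aluminium-induced type and had 15.1 and 1.23 RPM in 32-cell embryos, against 759.7 and 261 RPM in 1-cell/2-cell embryos (log2 change -6.08 ± 0.92, adjusted p = 0.0112). BT1 (AT5G63160), a BTB and TAZ domain protein, had 0.215 and 0.120 RPM in 32-cell embryos, against 55.8 and 39.8 RPM in 1-cell/2-cell embryos (log2 change -8.02 ± 0.86, adjusted p = 0.00356). STP1 (AT1G11260), a hexose importer that sugar represses, had 3.38 and 8.62 RPM in 32-cell embryos, against 215 and 91.8 RPM in 1-cell/2-cell embryos (log2 change -4.58 ± 0.59, adjusted p = 0.00632). DIN10 (AT5G20250), a raffinose synthase-type protein, had 27.8 and 37.8 RPM in 32-cell embryos, against 350.1 and 231 RPM in 1-cell/2-cell embryos (log2 change -3.06 ± 0.48, adjusted p = 0.0121). The class II trehalose-phosphate synthase genes TPS8, TPS9 and TPS11 had log2 changes of -2.99, -2.46 and -3.49, and DIN2 and DIN4 passed as well. No member was above 0 in either cross, beside 8763 (Col-0 x Cvi-0) and 8859 (Cvi-0 x Col-0) of all 17478 tested genes. At the 1-cell/2-cell stage 16 of the 18 members were higher in the Col-0 x Cvi-0 than in the Cvi-0 x Col-0 library, with a median log2 difference of 1.12. Over all 17478 tested genes 8516 were higher in the Col-0 x Cvi-0 library at that stage. With 1 library left out, 9 to 14 members were lower. Pollen pectin methylesterase genes had their highest level in the same early library. VGD1 had 1.23 and 0.330 RPM in 32-cell embryos, against 69.1 and 4.08 RPM in 1-cell/2-cell embryos. VGDH1 had 1.04 and 0.270 RPM in 32-cell embryos, against 30.9 and 4.27 RPM in 1-cell/2-cell embryos. Allele reads of VGD1 at the 1-cell/2-cell stage were 200 Col-0 and 8 Cvi-0 with a Col-0 mother, the Cvi-0 allele being that of the father. With a Cvi-0 mother they were 19 Col-0 and 2 Cvi-0. The part of these genes in the result was not tested.

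**Figure D4:**
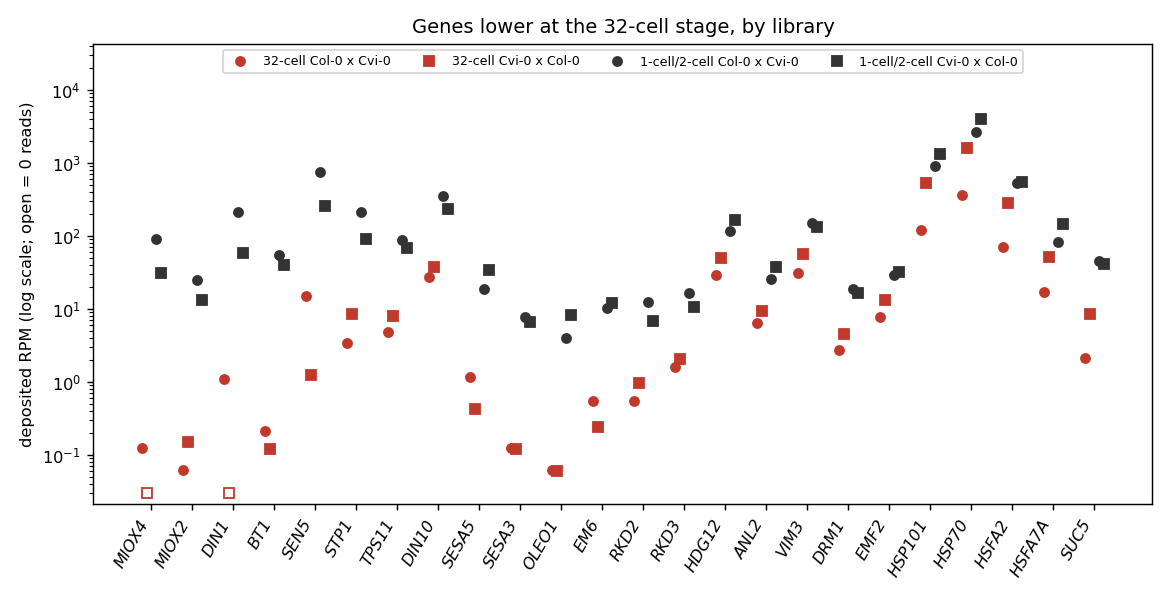
Deposited RPM (log scale) of 24 list genes that were lower at the 32-cell stage, in each of the 4 libraries. Red symbols are 32-cell and black symbols 1-cell/2-cell libraries, circles are Col-0 x Cvi-0 and squares Cvi-0 x Col-0, and open symbols stand for 0 reads; both red symbols lie below both black ones in every gene shown, and in the heat shock genes HSP101 to HSFA7A the red circle lies below the red square.

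MIOX4 and 9 other genes had the largest fitted decreases, and all were genes at or near 0 in 32-cell embryos. DYL1 (AT1G28330), a dormancy-associated protein gene, had 0 reads in 32-cell embryos, against 18.3 and 5.52 RPM in 1-cell/2-cell embryos, and was at least 119-fold lower. AT4G27450, a relative of AT3G15450, had 0.0615 and 0 RPM in 32-cell embryos, against 39.0 and 7.85 RPM in 1-cell/2-cell embryos (early to late ratio 701, interval 125 to 27738). HIR2, of the hypersensitive-induced reaction family, and AT2G25450, a dioxygenase gene, had early to late ratios of 531, interval 94.8 to 21012 and 566, interval 101 to 22404. The germin gene GER3 (at least 48.1-fold lower), LEA4-5 (at least 36.4-fold) and AT1G15330, a CBS domain gene (at least 78.5-fold), had 0 late reads, as did AT1G04560, an AWPM-19-type gene (at least 50.5-fold), and the RING-type gene AT3G14250 (at least 37.97-fold). The calls of AT1G15330, AT1G04560 and AT3G14250 were lost without the 1-cell/2-cell library with a Col-0 mother, as were those of DYL1 and LEA4-5, and that of GER3 was lost without the 1-cell/2-cell library with a Cvi-0 mother. Abundant genes that fell included AGP1 (AT5G64310) and AGP15 (AT5G11740), arabinogalactan proteins of the cell surface. AGP1 had 471 and 921 RPM in 32-cell embryos, against 2009 and 2250.2 RPM in 1-cell/2-cell embryos (log2 change -1.54 ± 0.28, adjusted p = 0.0194), and AGP15 had 638 and 827 RPM in 32-cell embryos, against 1749 and 2506 RPM in 1-cell/2-cell embryos (log2 change -1.40 ± 0.27, adjusted p = 0.0259). CYP78A5 (AT1G13710), the growth regulator KLUH, had 249 and 621 RPM in 32-cell embryos, against 984 and 2411 RPM in 1-cell/2-cell embryos (log2 change -1.85 ± 0.35, adjusted p = 0.0241). All 3 calls were lost without the 32-cell library with a Col-0 mother.

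Seed storage protein, oleosin and LEA genes, which fill the maturing seed, were lower in 4 of 11 tested members and higher in 0, with a median log2 change of -4.85. All were at low levels at both stages. SESA5 (AT5G54740), a 2S albumin, had 1.17 and 0.420 RPM in 32-cell embryos, against 18.7 and 34.3 RPM in 1-cell/2-cell embryos (log2 change -4.90 ± 0.71, adjusted p = 0.0101), and SESA3 had 0.123 and 0.120 RPM in 32-cell embryos, against 7.67 and 6.56 RPM in 1-cell/2-cell embryos (log2 change -5.74 ± 1.35, adjusted p = 0.0445). OLEO1 (AT4G25140), an oleosin of oil bodies, had 0.0615 and 0.0599 RPM in 32-cell embryos, against 3.97 and 8.39 RPM in 1-cell/2-cell embryos (early to late ratio 92.8, interval 25.3 to 773, adjusted p = 0.0283). EM6, a LEA protein gene, had 0.553 and 0.240 RPM in 32-cell embryos, against 10.5 and 11.9 RPM in 1-cell/2-cell embryos (log2 change -4.55 ± 1.06, adjusted p = 0.0431). Only SESA5 was called without the 1-cell/2-cell library with a Col-0 mother, and 2 genes were called without the 32-cell library with a Cvi-0 mother. Among 8 genes of a list of LEC1-type and B3 regulators, which also holds AGL18, 0 were lower and 1 was higher. The share higher was 12.5%, beside 4.18% of all tested genes. An unadjusted p under 0.05 in edgeR was found for 6 of the 8, beside 4634 of all 17478 tested genes. AGL18 had 4.15 and 4.71 RPM in 32-cell embryos, against 22.4 and 14.9 RPM in 1-cell/2-cell embryos. It did not pass (log2 change -1.87 ± 0.50, adjusted p = 0.0634). LEC1 (AT1G21970) had 288 and 194 RPM in 32-cell embryos, against 174 and 254 RPM in 1-cell/2-cell embryos and did not pass (log2 change 0.30 ± 0.36, adjusted p = 0.64), as was so for ABI3, FUS3 and LEC2 (log2 changes 1.37, 1.65 and -1.30). The higher one was L1L (AT5G47670, annotated as NF-YB6), the closest relative of LEC1, which had 17.1 and 37.7 RPM in 32-cell embryos, against 3.03 and 0.622 RPM in 1-cell/2-cell embryos (log2 change 3.88 ± 0.85, adjusted p = 0.0358).

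Heat shock genes were lower in 9 of 18 tested members and higher in 0, with a median log2 change of -1.75. All 18 were below 0, beside 8731 of all 17478 tested genes. HSP70 (AT3G12580) had 363 and 1598 RPM in 32-cell embryos, against 2668 and 3945 RPM in 1-cell/2-cell embryos (log2 change -1.89 ± 0.40, adjusted p = 0.0312), and HSP101 (AT1G74310), a disaggregase, 119.9 and 529.9 RPM in 32-cell embryos, against 922 and 1342 RPM in 1-cell/2-cell embryos (log2 change -1.96 ± 0.38, adjusted p = 0.0247). HSFA7A (AT3G51910) and HSFA2 (AT2G26150) are heat-induced transcription factors. HSFA7A had 17.0 and 51.6 RPM in 32-cell embryos, against 81.5 and 145 RPM in 1-cell/2-cell embryos (log2 change -1.73 ± 0.29, adjusted p = 0.0155), and HSFA2 had 70.7 and 283 RPM in 32-cell embryos, against 524 and 544 RPM in 1-cell/2-cell embryos (log2 change -1.77 ± 0.41, adjusted p = 0.0438). The 32-cell library with a Col-0 mother was the lowest of the 4 in each of these genes. At that stage all 18 genes were lower in the Col-0 x Cvi-0 than in the Cvi-0 x Col-0 library, with a median log2 difference of -1.87. Over all 17478 tested genes 8847 were lower in the Col-0 x Cvi-0 library. The median log2 change of the list was -2.45 in the Col-0 x Cvi-0 cross and -0.93 in the Cvi-0 x Col-0 cross. Without the 32-cell library with a Col-0 mother 0 members were called, and without the term for cross 1 was. The count was 14 without the 32-cell library with a Cvi-0 mother, 16 without the 1-cell/2-cell library with a Cvi-0 mother, 6 without the 1-cell/2-cell library with a Col-0 mother and 5 without either 8-cell library. Heat shock genes outside the list that fell among the most abundant were Hsp70b and AT1G07400 (log2 changes -2.34 and -1.20); both lost the call without the 32-cell library with a Col-0 mother.

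Of 24 genes of DNA methylation, 1 was higher (4.17%) and 3 were lower (12.5%), beside 4.18% and 3.6% of all tested genes. The median log2 change of the list was -0.42. CMT2 (AT4G19020), a chromomethylase of heterochromatin, had 16.9 and 20.9 RPM in 32-cell embryos, against 3.38 and 5.75 RPM in 1-cell/2-cell embryos (log2 change 2.21 ± 0.42, adjusted p = 0.0233). VIM3 (AT5G39550), a reader of methylated DNA, had 30.9 and 56.5 RPM in 32-cell embryos, against 153 and 133 RPM in 1-cell/2-cell embryos (log2 change -1.63 ± 0.31, adjusted p = 0.0239). DRM1 (AT5G15380), a de novo methyltransferase, had 2.71 and 4.56 RPM in 32-cell embryos, against 19.0 and 16.7 RPM in 1-cell/2-cell embryos (log2 change -2.21 ± 0.47, adjusted p = 0.0327), and SUVH4 (AT5G13960), a histone methyltransferase that guides CMT3, had 64.0 and 80.4 RPM in 32-cell embryos, against 168 and 187 RPM in 1-cell/2-cell embryos (log2 change -1.17 ± 0.27, adjusted p = 0.0403). CMT3 itself, with 163 and 202 RPM in 32-cell embryos, against 441 and 369 RPM in 1-cell/2-cell embryos, did not pass (log2 change -1.02 ± 0.26, adjusted p = 0.0564), nor did MET1 (log2 change -0.43). Over 14 alternative settings SUVH4 lost its call in 6, DRM1 in 3, CMT2 in 2 and VIM3 in 1. Without the 32-cell library with a Col-0 mother none of the 4 was called, and without the 32-cell library with a Cvi-0 mother CMT2 and VIM3 were. Without the 1-cell/2-cell library with a Col-0 mother CMT2 and DRM1 lost their calls. Among 11 Polycomb genes EMF2 (AT5G51230), a subunit of the repressive complex, was lower, with 7.71 and 13.1 RPM in 32-cell embryos, against 29.1 and 32.3 RPM in 1-cell/2-cell embryos (log2 change -1.47 ± 0.33, adjusted p = 0.0401), and lost its call without each of the 4 compared libraries. The share of lower Polycomb genes was 9.09%, beside 3.6% of all tested genes. Of 13 genes of the microRNA machinery and SPL factors 0 passed in edgeR. An unadjusted p under 0.05 was found for 4 of the 13, beside 4634 of all 17478 tested genes. DESeq2 called 1 of the 13, beside 1646 higher and 1360 lower of all tested genes. Of 16 tested SAUR genes, which auxin induces, 1 was higher (6.25%, beside 4.18% of all tested genes). This gene, AT1G75580, had 17.3 and 11.2 RPM in 32-cell embryos, against 0.472 and 0.272 RPM in 1-cell/2-cell embryos. Its log2 change was 5.32 ± 0.80 (adjusted p = 0.0111).

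Markers of other tissues were measured in the same libraries. The summed level of 16 seed coat markers was 68.8 and 160.5 RPM in 32-cell embryos, against 66.7 and 63.9 RPM in 1-cell/2-cell embryos. Of 13 tested members 0 passed in edgeR, and 3 had an unadjusted p under 0.05, beside 4634 of all 17478 tested genes. DESeq2 called 1 of the 13, beside 1646 higher and 1360 lower of all tested genes. All 13 markers were lower in the Col-0 x Cvi-0 than in the Cvi-0 x Col-0 library at the 32-cell stage, with a median log2 difference of -1.39. Over all 17478 tested genes 8847 were lower in the Col-0 x Cvi-0 library at that stage. The summed level of 11 endosperm markers was 17.8 and 17.5 RPM in 32-cell embryos, against 51.5 and 45.2 RPM in 1-cell/2-cell embryos. Most of the early level was SUC5, a sucrose carrier gene of the endosperm, with 2.15 and 8.47 RPM in 32-cell embryos, against 44.8 and 40.9 RPM in 1-cell/2-cell embryos (log2 change -3.02 ± 0.55, adjusted p = 0.0211). ALE1, an endosperm protease gene needed for the embryo's cuticle, had 5.04 and 2.01 RPM in 32-cell embryos, against 0.0787 and 0.0780 RPM in 1-cell/2-cell embryos (ratio 49.4, interval 13.4 to 413, adjusted p = 0.043), and lost its call without either 32-cell library, the 1-cell/2-cell library with a Col-0 mother or the 8-cell library with a Col-0 mother. SDC had 6.27 and 0.781 RPM in 32-cell embryos, against 0 and 0.0777 RPM in 1-cell/2-cell embryos. Its ratio was 97.9, interval 17.2 to 3901, and it did not pass (adjusted p = 0.0932). PHE1, AGL62, ZOU and MINI3 stayed at or below 2.72 RPM in each of the 4 libraries, and AGL36 had 0 reads. The summed level of 10 pollen and sperm markers was 3.90 and 4.26 RPM in 32-cell embryos, against 108.0 and 9.48 RPM in 1-cell/2-cell embryos, with DUO1 and HTR10 at 0. Of 3 tested, 0 passed in edgeR, and 2 had an unadjusted p under 0.05, beside 4634 of all 17478 tested genes. DESeq2 called 2 of the 3, beside 1646 higher and 1360 lower of all tested genes. The egg cell genes EC1.1 to EC1.4 and the synergid gene MYB98 stood at or below 0.691 RPM. EC1.5 had 16.4 and 9.82 RPM in 32-cell embryos, against 33.5 and 56.2 RPM in 1-cell/2-cell embryos (log2 change -1.61 ± 0.46, adjusted p = 0.0759). The part of these tissues in the changes was not tested. In pooled embryos, fewer cells of a type and less RNA per cell cannot be told apart.

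The reciprocal crosses gave similar list medians for some groups and different ones for others. The median log2 change of the polarity genes was 2.84 in the Col-0 x Cvi-0 cross and 2.24 in the Cvi-0 x Col-0 cross, and that of the root patterning genes was 1.81 and 1.78. That of the sugar starvation genes was -4.72 in the Col-0 x Cvi-0 cross and -3.08 in the Cvi-0 x Col-0 cross, and heat shock and photosynthesis genes differed between the crosses as given above. No test of this difference was possible, since each cross had 1 library per stage.

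**Figure D5:**
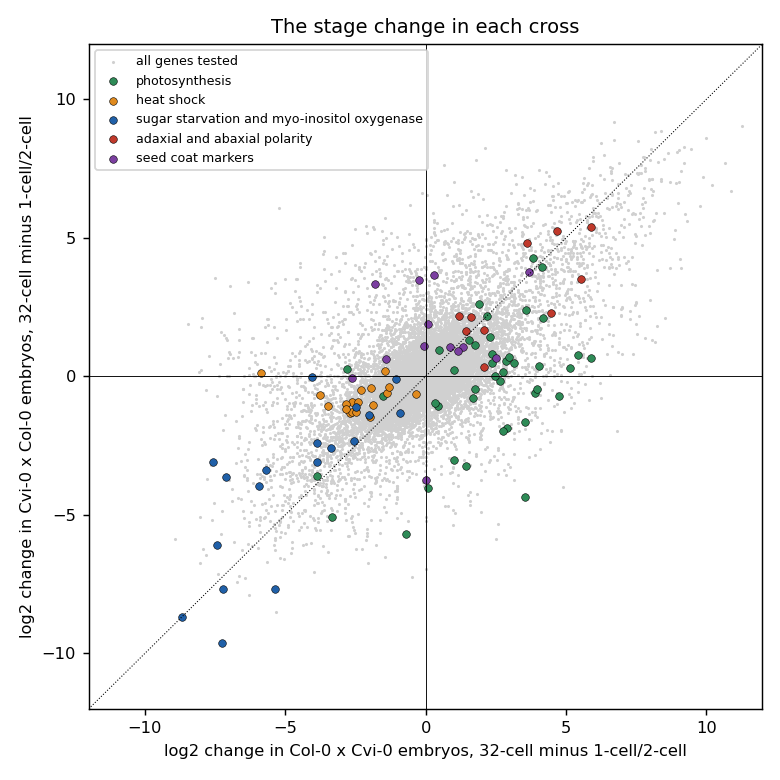
Log2 change (32-cell minus 1-cell/2-cell) in the Cvi-0 x Col-0 cross (vertical axis) against that in the Col-0 x Cvi-0 cross (horizontal axis), 1 point per gene, from TMM-scaled log2 CPM with a prior count of 1. Grey points are all 17478 genes tested and coloured points the members of 5 lists; the dotted line marks equal change. Photosynthesis genes lie mostly to the right of the line and heat shock genes mostly to its left, while polarity genes lie above 0 in both crosses.

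Reads over variants between the accessions were counted by the authors as Col-0 or Cvi-0 reads. They are given here as maternal or paternal, with the mother taken as the parent named first, which the labels do not state. Among genes called higher, 338 had at least 20 allele reads in each 32-cell library. Their median maternal share, taken as the mean log odds of the 2 crosses with 0.5 reads added, was 50.5%, beside 50.2% over all 4863 genes with that many reads. For 286 genes called lower the median maternal share at the 1-cell/2-cell stage was 50.1%, beside 49.99% over 4492 genes. At the 32-cell stage the maternal share exceeded 80% in 2 of the 338 higher genes (0.592%), beside 0.206% of all, and was below 20% in 0 of them, beside 0.0206% of all. At the 1-cell/2-cell stage it exceeded 80% in 2 of the 286 lower genes (0.699%), beside 0.846% of all, and was below 20% in 6 (2.1%), beside 0.846% of all. These tails were not tested. Among named genes CYP78A5 had 241 maternal and 641 paternal reads in the 32-cell library with a Col-0 mother, and 1142 maternal and 1283 paternal reads in the one with a Cvi-0 mother. The seed coat marker LDOX, an enzyme gene of pigment synthesis, had at the 32-cell stage 20 maternal and 0 paternal reads with a Col-0 mother, and 64 maternal and 0 paternal reads with a Cvi-0 mother. F3H, the other named seed coat marker with enough reads at that stage, had reads of both alleles, 78 maternal and 102 paternal with a Col-0 mother, and 105 maternal and 58 paternal with a Cvi-0 mother. At the 1-cell/2-cell stage F3H had 29 maternal and 22 paternal reads with a Col-0 mother. With a Cvi-0 mother it had 68 maternal and 0 paternal reads at that stage.

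Other promoter motifs were searched in the same 250-base windows on both strands, as a description. The auxin response element TGTCTC was in 11.7% of the windows of higher genes, 9.24% of lower genes and 10.5% of all tested genes, and in 0 of 24 auxin genes. The telo box AAACCCTA was in 2.76%, 3.50% and 4.07% of these groups, and in 19 of 72 windows of the ribosomal genes (26.4%). The E2F site TTTNNCGC was in 4.28%, 7.01% and 6.38%, and in 11 of 41 windows of histone genes (26.8%). AACGG was in 22 of the 41 histone windows (53.7%). No match in a window says only that these letters are not in it.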

How the data were processed

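Poly(A) RNA of pooled embryos was amplified linearly and sequenced with the strand kept, per the labels' protocols. Per the submitters' processing notes, reads were mapped with Bowtie to TAIR10, and to a version with Cvi-0 variants, per the series' design text, keeping perfect and unique matches. The version of Bowtie is not given in the sources used here. Perfect matching loses reads with unlisted variants, and unique matching loses reads of near-identical genes.

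Per the file headers, the authors deposited gene reads, estimated counts with steps of 0.5, and counts of allele reads. They also deposited gene RPM, the levels printed. Another 36 columns of per-sample values were not used. Genes missing from a file were set to 0. Identifiers were matched to TAIR10.1 (23737 of 23874), which gave products, coordinates and promoter windows.

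Gene reads were rounded, filtered with filterByExpr by stage, scaled with TMM and fitted in edgeR 4.0.16 (R 4.3.3) with stage and cross as terms over 6 libraries, with 2 residual degrees of freedom and a biological coefficient of variation of 42.9%. SE is the log2 change divided by the square root of F. DESeq2 1.42.0 and limma 3.58.1 were alternatives, beside other scalings, filters, the 4 libraries alone, no term for cross and each library left out. Scripts were tested on simulated data. Ratios have exact 95% intervals. Printed RPM pairs are single libraries, so no SD is given. The cross direction, given in the labels, pairs libraries across stages and is the block of the fit.

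Named genes were the 10 with the largest fitted change in each direction without overlap of the stages, the 6 most abundant called genes in each direction with at least 2-fold change, and up to 4 members per list with the smallest p. Members of marker lists with reads belong to the rule too and are given mostly as sums. Other called members are named as well. The lists and the comparison were chosen with earlier results of these data known, so they are no independent evidence.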

Additional observations from a re-analysis of the deposited data

Results flagged for a closer look

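In 4 list members with a mean of at least 2 RPM, the level changed at least 2-fold in opposite directions in the reciprocal crosses. These differences were not tested, since each cross had 1 library per stage. LHCB1.1, a chlorophyll-binding protein gene, had 5.72 and 1.62 RPM in 32-cell embryos, against 3.38 and 13.7 RPM in 1-cell/2-cell embryos, log2 changes of 1.01 (Col-0 x Cvi-0) and -3.01 (Cvi-0 x Col-0). Its relative LHCB1.3 had 24.6 and 3.69 RPM in 32-cell embryos, against 3.93 and 14.0 RPM in 1-cell/2-cell embryos (log2 changes 2.89 and -1.88). PSAK, a photosystem I subunit gene, had 8.36 and 1.29 RPM in 32-cell embryos, against 0.786 and 4.39 RPM in 1-cell/2-cell embryos (log2 changes 3.56 and -1.65). The seed coat marker TT19, a glutathione transferase gene of pigment transport, had 0.891 and 6.82 RPM in 32-cell embryos, against 3.74 and 0.621 RPM in 1-cell/2-cell embryos (log2 changes -1.79 and 3.32). The LHCB genes belong to a family of close copies, and their single values are uncertain.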

How the results depend on the processing

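In 14 alternatives, 0 genes called here were called in the opposite direction. The genes DIN2, SDC, SPL3 and HAP2 had 13, since the filter at 1 RPM left them out. The count of higher and lower genes was 1186 and 1023 with no filter on low counts, and 1646 and 1360 with DESeq2. With limma on log2(RPM + 0.5) 919 genes were higher and 1020 lower. With each library left out in turn the counts ranged from 452 to 1194 higher and from 335 to 994 lower; a stage then has 1 library, which is assumed to vary like the others. Both extremes came from leaving out the 32-cell library with a Col-0 mother (lowest) and the 1-cell/2-cell library with a Cvi-0 mother (highest). The cause was not tested. Without the replicate block, that is without the term for cross, 751 genes were higher and 593 lower, of which 654 and 510 were called with it. The 4 compared libraries alone gave 806 and 718, the filter at 1 RPM 803 and 710, size factors of DESeq2 742 and 621, and library totals 543 and 744.

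Of 155 genes named or called in a list, 122 were called, 48 kept their call in all 14 alternatives and 0 reversed. The most calls, 61, were lost without the 32-cell library with a Col-0 mother, 24 without the replicate block and 2 with DESeq2. Of 33 genes not called, 21 were called in at least 1 alternative. With 2 residual degrees of freedom and genes of few reads, a change that did not pass was not detectable at this depth and is not shown to be absent.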
